A study of Mus musculus with 30 samples.

Results

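The genes described here handle heme and iron in myeloid cells of the ischemic mouse brain. They are 9 genes, Hmox1, Hmox2, Blvra, Blvrb, Tfrc, Slc11a1, Fth1, Ncoa4 and Slc40a1, of 19479 genes with a symbol on the array. They were chosen by name, as genes of heme breakdown and of iron uptake, storage, release and export, and the platform annotation gave each of them 1 transcript cluster, the unit that the array summarises as a single value. Cells came from male C57BL/6 mice aged 8 to 10 weeks, either TREM1+/+ (wild type, WT) or TREM1-/- (knockout, KO). TREM1 is a receptor of myeloid cells that amplifies inflammatory signalling. All of the mice, WT and KO, had been given an experimental ischemic stroke by closing the middle cerebral artery for 45 min. Sorting took place 48 h after blood flow returned and used the ischemic hemisphere, so no group came from an uninjured brain. Neutrophils were CD45 high, CD11b+ and Ly6G+, macrophages were CD45 high, CD11b+ and Ly6G-, and microglia were CD45 low and CD11b+, a gate that the labels also give as Ly6G+. Neutrophils were on 4 WT arrays and 5 KO arrays, macrophages on 3 WT and 6 KO, and microglia on 6 of each genotype. They are titled as biological replicates, and the labels do not say whether cells of several mice were pooled.

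Heme released from dying cells and extravasated blood is split by heme oxygenase into iron, carbon monoxide and biliverdin, and biliverdin reductase turns biliverdin into bilirubin. Iron enters most cells bound to transferrin, is stored in ferritin, is freed again when ferritin is delivered to the lysosome, and leaves the cell through ferroportin. Macrophages are known for recycling the iron of red cells by this route, and neutrophils and macrophages also move iron out of the phagosome, which withholds it from ingested microbes.

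The labelled cell types were checked against marker lists. The mean log2 intensity per array of 13 neutrophil markers was 13.9 to 16.1 in WT neutrophils, 8.18 to 8.94 in WT macrophages and 6.16 to 6.67 in WT microglia. For 12 monocyte and macrophage markers it was 14.8 to 15.2 in WT macrophages against 11.7 to 13.02 in WT neutrophils, and for 11 microglial markers it was 13.7 to 14.9 in WT microglia against 9.31 to 10.3 in WT neutrophils. KO microglia spread further in neutrophil markers, from 6.26 to 9.23. Red cells carry much heme, and 4 of 13 erythroid markers could be matched (Alas2, Slc4a1, Epb42 and Ermap), with a mean of 6.22 to 6.86 in WT and 5.80 to 6.12 in KO neutrophils, near the median of 6.69 over all cluster means. Of the 4, Slc4a1 lay above that median, at a mean of 8.32 in WT and 8.04 in KO neutrophils. The globin genes of the list were among those not matched, so red-cell RNA was not checked through them. Trem1, the targeted gene, was at 17.20 ± 0.29 (SD, n = 4) in WT and 15.98 ± 0.51 (n = 5) in KO neutrophils, 1 value for the whole gene that does not test the deletion.

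**Figure D1:**
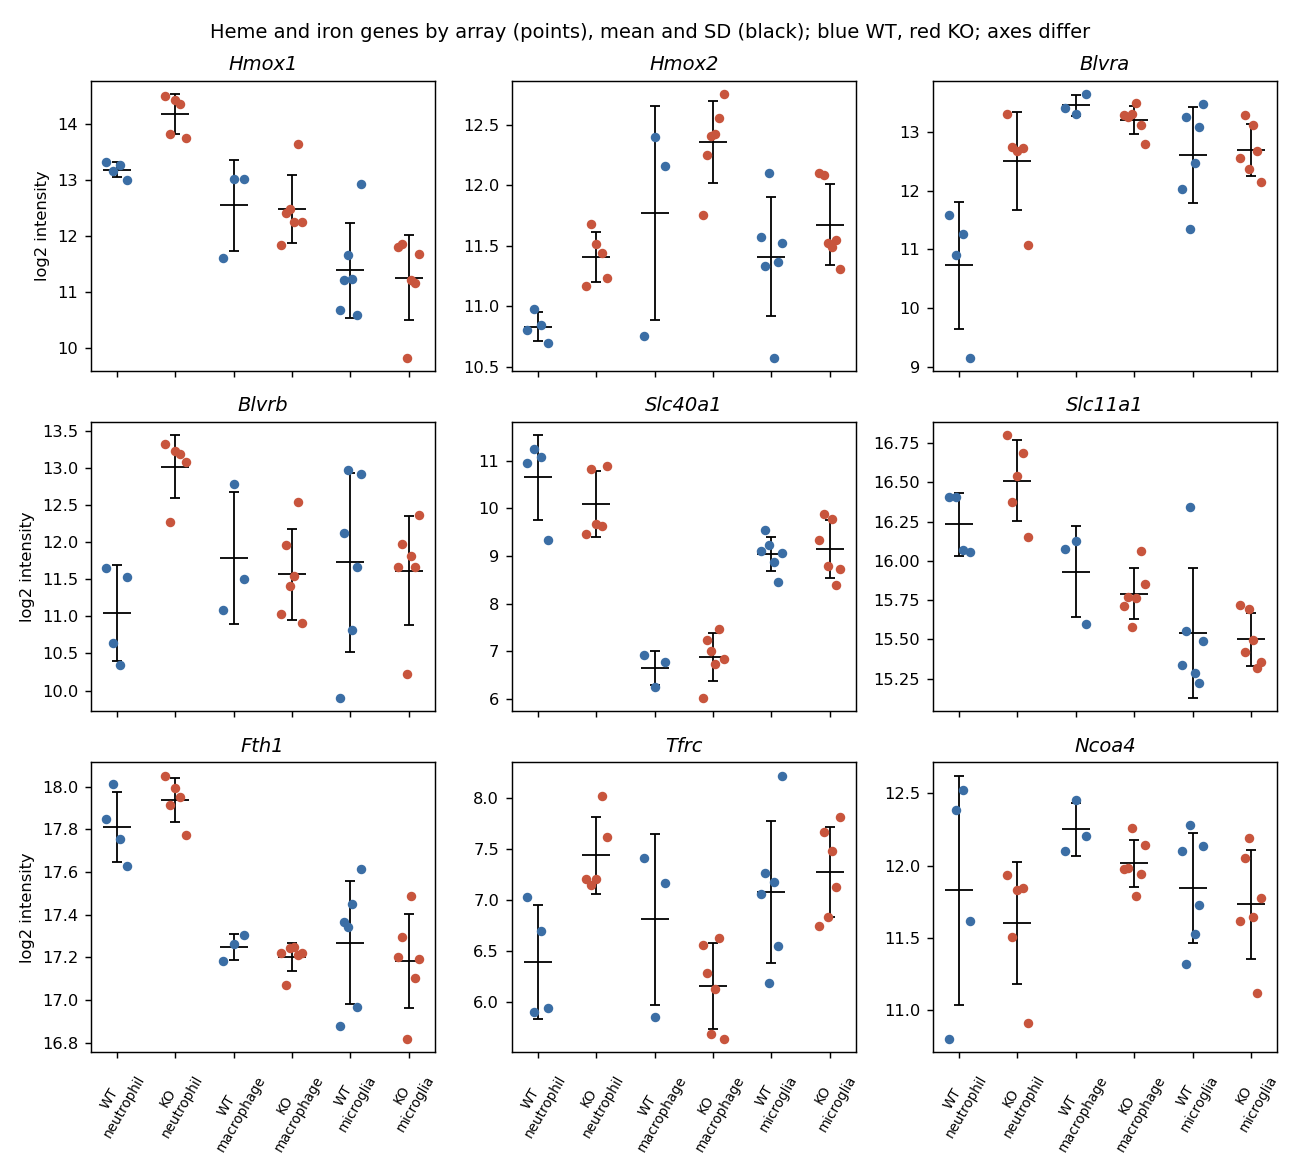
Log2 intensity of the 9 heme and iron genes on each of the 30 arrays (points; blue WT, red KO), with the mean and SD of each group in black and a separate vertical axis for each gene. Slc40a1 lies between 6.02 and 7.48 on every macrophage array and between 8.40 and 11.24 on all others, and all 5 KO neutrophil arrays of Hmox1 lie above the 4 WT ones.

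The first question was where each gene was expressed, beginning with heme breakdown. Hmox1, the inducible heme oxygenase (chr8:75093618-75100593, GRCm38.p6), had its highest group means in neutrophils, though the difference from macrophages did not pass in WT mice. Its log2 intensity was 13.32, 13.17, 13.27 and 13.002 in the 4 WT neutrophil arrays and 14.51, 13.83, 14.43, 14.37 and 13.76 in the 5 KO ones. WT macrophages were at 11.61, 13.02 and 13.02. KO macrophages ran from 11.85 to 13.64 around a median of 12.34. WT microglia ran from 10.59 to 12.93 with a median of 11.23, and KO microglia from 9.83 to 11.85 with a median of 11.45. By group mean the order was KO neutrophils, WT neutrophils, WT macrophages, KO macrophages, WT microglia and KO microglia, and only the first step, between KO and WT neutrophils, separated neighbouring groups whose arrays did not overlap.

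Hmox2, the constitutive heme oxygenase (chr16:4726361-4766742), ran the other way, with its lowest mean in WT neutrophils. The WT neutrophil arrays were at 10.81, 10.98, 10.84 and 10.69 and the KO ones at 11.17, 11.68, 11.51, 11.44 and 11.23. KO macrophages were highest, from 11.75 to 12.75 with a median of 12.41. One WT macrophage array stood at 10.76 and the others at 12.40 and 12.15, so that group spanned nearly all levels seen in the other cells. WT microglia, from 10.58 to 12.10 around 11.44, and KO microglia, from 11.31 to 12.10 around 11.53, lay between and overlapped both other cell types.

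Blvra encodes biliverdin reductase A (chr2:127070629-127097084). Its log2 intensity was 13.41, 13.30 and 13.64 in WT macrophages and 12.79 to 13.48, median 13.27, in KO macrophages. Microglia were lower and more spread, from 11.35 to 13.48 in WT (median 12.78) and from 12.15 to 13.29 in KO (median 12.61). WT neutrophils were lowest at 11.58, 10.90, 11.27 and 9.16, and KO neutrophils were at 13.30, 12.75, 12.68, 12.73 and 11.08. Of the KO arrays, 4 lay above all WT arrays and replicate 5 lay inside the WT range. All neighbours in the order of the group means overlapped.

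Blvrb encodes biliverdin reductase B (chr7:27447978-27465981), which also reduces flavins. Here KO neutrophils had the highest mean of all 6 groups and WT neutrophils the lowest. The WT neutrophil arrays were at 11.65, 10.64, 10.35 and 11.54 and the KO ones at 13.33, 12.27, 13.23, 13.19 and 13.09. WT macrophages were at 11.08, 12.79 and 11.50, and KO macrophages between 10.91 and 12.55 (median 11.48). Microglia spread widely, from 9.90 to 12.97 in WT (median 11.89) and from 10.22 to 12.37 in KO (median 11.74), so the remaining 4 groups could not be ordered beyond their spread.

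The promoters of the biliverdin reductase genes are shown because both genes rose in KO neutrophils, as described below. The bases run up to the gene's annotated start on the + strand, from RefSeq with GRCm38.p6. They are chr2:127070407-127070628 for Blvra and chr7:27447728-27447977 for Blvrb. Capitals mark a match on the minus strand to TGACNNNGC, the core of the antioxidant response element, the site type through which NRF2 and BACH1 are known to act on Hmox1.
Blvra: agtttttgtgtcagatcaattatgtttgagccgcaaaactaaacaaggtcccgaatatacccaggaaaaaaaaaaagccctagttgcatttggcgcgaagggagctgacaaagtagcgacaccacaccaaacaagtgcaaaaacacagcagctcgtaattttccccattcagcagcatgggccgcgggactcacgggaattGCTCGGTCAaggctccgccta
Blvrb: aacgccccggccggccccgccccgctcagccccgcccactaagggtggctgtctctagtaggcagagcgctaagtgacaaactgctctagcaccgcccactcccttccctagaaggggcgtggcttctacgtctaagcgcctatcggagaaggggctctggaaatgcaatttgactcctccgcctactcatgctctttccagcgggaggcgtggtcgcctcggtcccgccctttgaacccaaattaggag

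RefSeq windows of 250 bases before an annotated start were found for 7 of the 9 genes, 14 windows in all, and each was searched on both strands. Of the 14 windows, TGACNNNGC was present in window 1 of Blvra and window 3 of Ncoa4, and 10.2% of the 32851 windows of all genes hold it. ACGTG, the hypoxia response core, was present in windows 1 and 3 of Ncoa4 and in window 2 of both Tfrc and Blvrb, and 16.6% of all windows hold it. Neither TGAGTCA (4.46% of all windows) nor the E-box CACGTG (6.02%), which contains ACGTG, was in a window of these genes. A match describes the letters only.

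Among the genes of iron handling, Slc40a1, ferroportin, the iron exporter (chr1:45908070-45926532), separated the cell types most. WT neutrophils were at 10.96, 11.24, 11.08 and 9.33, and KO neutrophils at 9.46, 10.83, 9.67, 9.63 and 10.88. Microglia were lower, from 8.46 to 9.55 in WT (median 9.09) and from 8.40 to 9.88 in KO (median 9.07). WT macrophages were at 6.93, 6.25 and 6.77, and KO macrophages ran from 6.02 to 7.48 (median 6.92), close to the median of 6.69 over all cluster means, so ferroportin was not shown to be above background in macrophages. The order of the means was neutrophils, microglia, macrophages, with a gap between the lowest microglial array and the highest macrophage array and with overlap at every other step.

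Tfrc, the transferrin receptor (chr16:32608896-32632794), was dim in every group. The WT neutrophil arrays read 7.02, 5.91, 6.69 and 5.94 and the KO ones 7.20, 7.14, 7.20, 8.01 and 7.61. WT macrophages read 7.41, 5.86 and 7.17 and KO macrophages 5.64 to 6.63 (median 6.21). WT microglia covered 6.19 to 8.21 (median 7.11) and KO microglia 6.74 to 7.81 (median 7.30). The means of WT neutrophils and KO macrophages, 6.39 and 6.16, lay under the median of all cluster means, and that of WT macrophages, 6.81, was close to it. A level above background was not shown in these groups, and differences against them may be understated.

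Slc11a1, the gene of the phagosomal iron and manganese transporter NRAMP1 (chr1:74375014-74386057), was bright throughout. The array reads transcript, and whether the transporter works in these mice was not measured. WT neutrophils read 16.41, 16.41, 16.07 and 16.05 and KO neutrophils 16.80, 16.37, 16.54, 16.68 and 16.15. WT macrophages read 16.07, 16.12 and 15.60, with KO macrophages at 15.58 to 16.06 (median 15.77). WT microglia stayed between 15.22 and 15.56 except for replicate 3 at 16.34, and KO microglia lay between 15.31 and 15.72 (median 15.46). By group mean neutrophils were at the top, macrophages next and microglia at the bottom, with overlap at every step. Between macrophages and microglia the difference did not pass (limma adjusted p = 0.114 in WT and 0.142 in KO). Nor did that between WT neutrophils and WT macrophages (0.232).

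Fth1, the ferritin heavy chain that oxidises iron for storage (chr19:9980600-9985111), varied least between macrophages and microglia. WT neutrophils read 17.85, 18.02, 17.75 and 17.63 and KO neutrophils 18.05, 17.92, 17.99, 17.95 and 17.77. WT macrophages read 17.19, 17.26 and 17.31, KO macrophages 17.07 to 17.25, WT microglia 16.88 to 17.61 and KO microglia 16.82 to 17.49. The lowest neutrophil array, 17.63, was above the highest array of any other cell type. Ncoa4, the receptor that carries ferritin to the lysosome (chr14:32159879-32179855), had the narrowest span of group means. They lay between 11.60 ± 0.42 (SD, n = 5) in KO neutrophils and 12.25 ± 0.18 (n = 3) in WT macrophages, and every neighbouring pair overlapped.

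Neutrophils, where Trem1 was brightest, were compared between genotypes to ask what differs in the absence of TREM1. Both biliverdin reductase genes and the transferrin receptor gene rose. Blvrb rose by 1.98 on the log2 scale (3.94-fold, SE 0.50, limma adjusted p = 0.00616), with no overlap between the groups. Blvra rose by 1.78 (3.44-fold, SE 0.42, adjusted p = 0.00384), although KO replicate 5 fell inside the WT range. Tfrc rose by 1.04 (2.06-fold, SE 0.35, adjusted p = 0.0325), also without overlap, from a WT level not shown to be above background. These 3 of 9 genes compare with 10.7% of all 22103 clusters that passed in this direction and 9.14% in the other. None of the 9 fell.

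The other 6 genes did not pass. For Hmox1 the difference was 0.99 (SE 0.41, adjusted p = 0.0854) and for Hmox2 it was 0.58 (SE 0.27, adjusted p = 0.126), yet in both genes every KO array was above every WT array. With Blvrb and Tfrc this made 4 of 9 genes with KO arrays wholly above WT arrays, against 5.52% of all clusters, and 5.86% were wholly below. Slc11a1 differed by 0.28 (SE 0.18, adjusted p = 0.289), Fth1 by 0.13 (SE 0.14, 0.549) and Ncoa4 by -0.23 (SE 0.27, 0.58). Slc40a1 differed by -0.56 (SE 0.37, adjusted p = 0.293). With 1 array left out it ran from -0.999 (adjusted p = 0.0575), without the low WT replicate 4, to -0.36, with adjusted p up to 0.545. The median difference of the 9 genes was 0.58, against -0.13 for all clusters. All clusters include dim ones. The level of 2015 bright clusters, described below, also ranged higher in KO neutrophils (12.85 to 13.21, against 12.42 to 12.91 in WT). A positive median was therefore not shown to be particular to these genes.

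**Figure D2:**
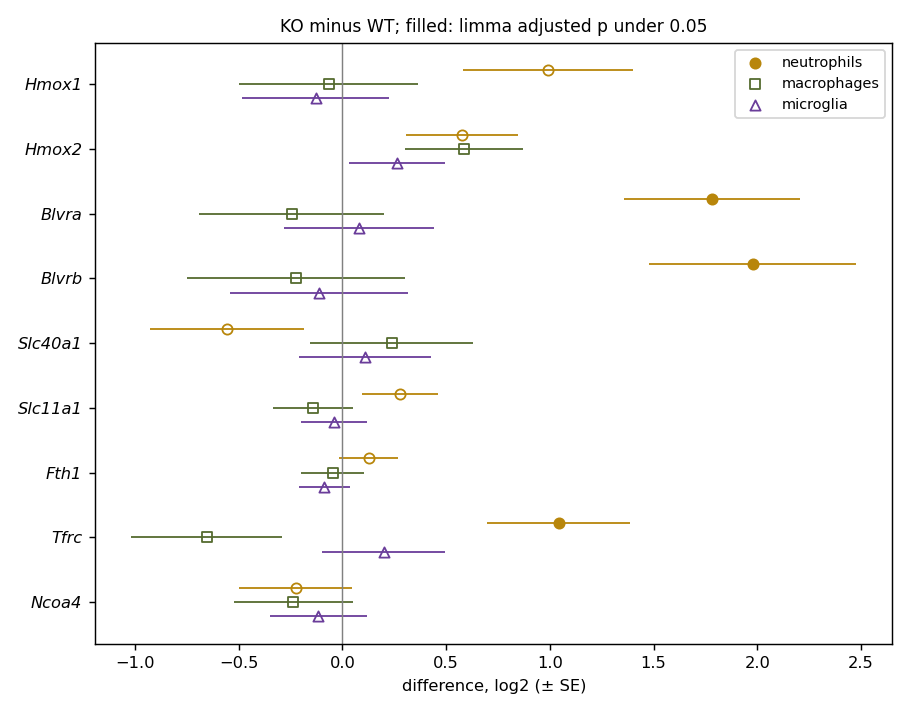
KO minus WT difference in log2 intensity (horizontal axis, with the SE of the model) for the 9 genes in neutrophils (circles), macrophages (squares) and microglia (triangles); filled symbols passed limma's adjusted p of 0.05. Filled symbols appear in neutrophils for Blvra at 1.78, Blvrb at 1.98 and Tfrc at 1.04, while the squares and triangles lie between -0.65 and 0.58.

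These calls differed in how they held across settings. In a fit of the 9 neutrophil arrays alone, Blvrb passed, Blvra (adjusted p = 0.0834) and Tfrc (0.0636) did not, and Hmox1 did (0.0282). Blvra and Blvrb passed with each array left out in turn, whereas Tfrc did not without WT replicate 2 (0.88, adjusted p = 0.0946), WT replicate 4 (0.89, 0.115) or KO replicate 4 (0.90, 0.0925). Centring each array on its median raised the share of higher calls among all clusters from 54.0% to 71.6%, and the 3 genes still passed.

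Other measures moved along with the genotype in neutrophils. The median level of 2015 clusters was 12.42 to 12.91 on the WT neutrophil arrays and 12.85 to 13.21 on the KO ones, which overlapped, with all macrophage and microglia arrays at 13.3 to 13.5. These clusters were chosen for being bright on every macrophage and microglia array, so a lower level in neutrophils as a whole is partly set by the choice. Among the clusters are Blvra, Slc11a1, Fth1 and Ncoa4. With this level as a covariate none of the 9 genes passed, with Blvra at -0.10 (adjusted p = 0.952), Blvrb at 1.17 (0.488), Tfrc at 0.66 (0.627) and Hmox1 at 0.17 (0.95). The level itself differed between genotypes in neutrophils, and for genes among the clusters it holds part of their own value, so this setting does not tell genotype and level apart. The mean of 11 border-associated macrophage markers was 9.01 to 9.55 in WT and 9.74 to 10.8 in KO neutrophils, with 5 of 11 higher and 1 lower. That of 12 monocyte and macrophage markers was 11.7 to 13.02 and 12.3 to 12.8, with 4 higher and 1 lower. The 13 neutrophil markers ranged from 13.9 to 16.1 in WT and 12.97 to 13.99 in KO, with 3 lower and none higher. Cartilage and connective tissue markers were at 7.21 to 9.62 in WT and 6.46 to 7.53 in KO, with 6 of 14 lower. The mean of the 4 erythroid markers was 6.22 to 6.86 in WT and 5.80 to 6.12 in KO, without overlap. All 4 were lower in KO, from -0.28 for Slc4a1 to -0.79 for Epb42, and only Epb42 passed (limma adjusted p = 0.00451). The means of Epb42, 4.73 in WT and 3.94 in KO, were not shown to be above background. The part of these measures in the gene differences was not tested, and in sorted pools a changed mix of cells and a changed amount of RNA per cell cannot be told apart.

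**Figure D3:**
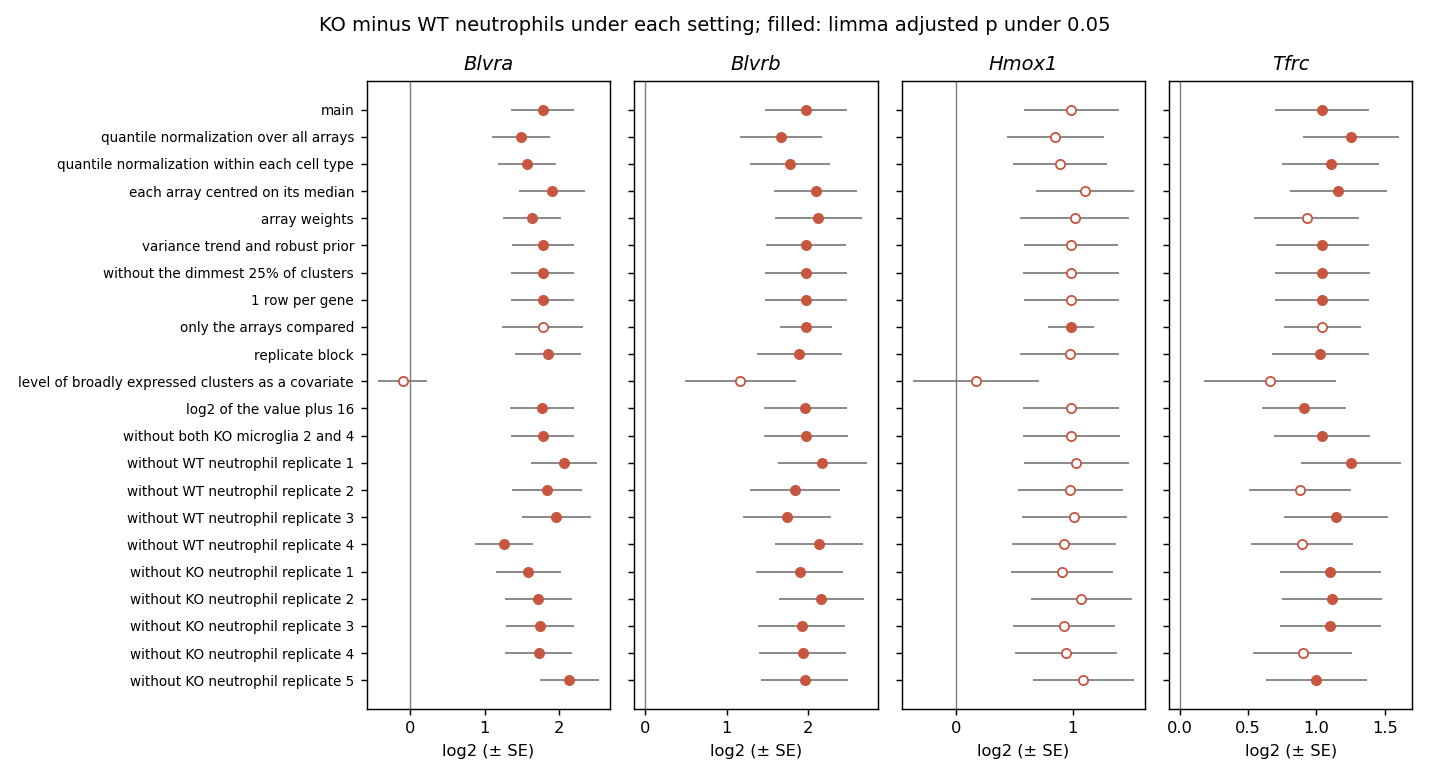
KO minus WT difference in neutrophils (log2, with SE) for Blvra, Blvrb, Hmox1 and Tfrc under the main fit, each other setting and with each neutrophil array left out; filled points passed limma's adjusted p of 0.05. Blvra is at -0.10 with the covariate and between 1.26 and 2.14 with an array left out, and Hmox1 is filled at 1 setting.

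In macrophages and microglia the same comparison passed for none of the 9 genes. In macrophages 0% of all clusters passed higher and 0.00452% lower. The differences of the 9 genes there lay between -0.65 for Tfrc (SE 0.36) and 0.58 for Hmox2 (SE 0.28), each with an adjusted p of 0.998. The Hmox2 difference in macrophages had the size seen in neutrophils, but the groups overlapped, and without WT replicate 1, the array at 10.76, it was 0.08. None of the 9 was free of overlap in macrophages, where 1.88% of clusters were wholly higher and 1.04% wholly lower. In microglia 0% of clusters passed in either direction. The 9 genes differed by -0.13 (Hmox1, SE 0.35) to 0.26 (Hmox2, SE 0.23), each with an adjusted p of 1, and all overlapped, where 0.0679% of clusters were wholly higher and 0.0407% wholly lower. Data were then simulated with these group sizes and all 22103 clusters. There the fit recovered 52% of changes of 1 log2 unit in macrophages, 58% in microglia and 56% in neutrophils. It made 119, 131 and 134 calls, more than the real macrophage and microglia comparisons and fewer than the neutrophil one. The adjusted p depends on the number of calls, so these shares do not rank the real comparisons. Recovery may be lower in the real macrophages and microglia, and a miss does not show equal levels.

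Whether the change with genotype differed between cell types was tested directly. The change in neutrophils exceeded that in macrophages for Blvra by 2.03 (SE 0.61, limma adjusted p = 0.0436) and for Tfrc by 1.70 (SE 0.50, adjusted p = 0.0392), 2 of 9 genes, against 4.36% of all clusters higher and 2.51% lower. For Blvrb the excess was 2.20 (SE 0.73, adjusted p = 0.0603). Against microglia it was 2.09 (SE 0.66, adjusted p = 0.0562) for Blvrb and 1.70 (SE 0.56, adjusted p = 0.0653) for Blvra, neither passing, where 4.06% of all clusters were higher and 1.73% lower. No gene differed between macrophages and microglia in its change, where 0% of clusters passed. Both calls were near the threshold, and the macrophage levels of Tfrc were not shown to be above background. The Tfrc excess joins 1.04 in neutrophils with -0.65 in macrophages, a difference the other way that did not pass (limma adjusted p = 0.998). The Blvra call passed in 24 of 42 other settings. It ended with only the arrays compared (adjusted p = 0.0734), with the replicate block (0.0826), with quantile normalization over all arrays (0.0678) or within each cell type (0.0604), and with the covariate (0.07, adjusted p = 0.985). It also ended without WT neutrophil 4, KO neutrophil 1, 2, 3 or 4, any of the WT macrophage arrays or KO macrophage 1, 2, 3, 5 or 6, with adjusted p up to 0.105. The Tfrc call passed in 31 of 42 settings. It ended with only the arrays compared (0.0572) and with the covariate (1.30, adjusted p = 0.443), and without WT neutrophil 2 or 4, KO neutrophil 1 or 4, WT macrophage 1 or 3 or KO macrophage 3, 4 or 6, with adjusted p up to 0.117.

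The WT cell types were compared next, to describe the levels of these genes among the cells of the ischemic hemisphere. Relative to WT microglia, WT neutrophils had more Hmox1, ferroportin, NRAMP1 and ferritin heavy chain transcript and less Blvra. Hmox1 was higher by 1.80 (SE 0.39, limma adjusted p = 0.000309), Slc40a1 by 1.61 (SE 0.36, 0.00038), Slc11a1 by 0.69 (SE 0.18, 0.00151) and Fth1 by 0.54 (SE 0.14, 0.00134). Blvra differed by -1.88 (SE 0.41, adjusted p = 0.000263). These 4 higher and 1 lower genes of 9 compare with 22% and 32.3% of all clusters. Taking both directions together, the count is near the share of all clusters. Hmox2 at -0.58 (adjusted p = 0.0593), Tfrc at -0.68 (0.0837), Blvrb at -0.69 (0.233) and Ncoa4 at -0.02 did not pass. Hmox1 and Fth1 did not overlap between the groups, 2 of 9 where 12.8% of clusters were wholly higher and 23.1% wholly lower. With quantile normalization over all arrays the Fth1 call ended (0.27, adjusted p = 0.0767).

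WT macrophages differed from WT microglia in 2 genes. Slc40a1 was lower in macrophages by 2.40 (-2.40, SE 0.39, limma adjusted p = 1.65e-05), with no overlap, as in 24.9% of clusters that were wholly lower and 8.79% wholly higher. Hmox1 was higher by 1.16 (SE 0.43, adjusted p = 0.0342), in overlapping groups. The background was 9.62% of clusters higher and 27.9% lower, so 2 of 9 genes is not above the share of all clusters. The Hmox1 call ended without WT macrophage 2 or 3, or without WT microglia 1, 2, 4 or 5 (adjusted p 0.0514 to 0.166), with quantile normalization over all arrays (0.051) and in a fit of only these arrays (0.076).

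Scaling bears on this comparison, since the median of all clusters was -0.25. Centring each array on its median raises the difference of every cluster alike, so calls gained by it are not particular to these genes. With each array centred on its median 66.5% of all calls were higher in macrophages, against 25.7% without centring. Then 6 of the 9 genes passed, the additional ones being Slc11a1 at 0.80 (adjusted p = 0.00333), Blvra at 1.24 (0.0397), Ncoa4 at 0.81 (0.0309) and Hmox2 at 0.76 (0.0381), all higher in macrophages.

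Between WT neutrophils and WT macrophages the contrast was widest for ferroportin. Slc40a1 was higher in neutrophils by 4.00 (SE 0.42, limma adjusted p = 1.53e-08), against macrophages that were not shown to be above background, and the groups did not overlap. Fth1 was higher by 0.56 (SE 0.16, adjusted p = 0.0051). Blvra differed by -2.72 (SE 0.48, adjusted p = 3.92e-05), and its highest neutrophil array, 11.58, was below its lowest macrophage array, 13.30. Hmox2 differed by -0.94 (SE 0.31, adjusted p = 0.012), a call that ended without WT macrophage 2 (-0.63, adjusted p = 0.121) or 3 (-0.75, 0.0797), with quantile normalization over all arrays (-0.33, 0.405) and in a fit of only these arrays (0.0878). Of all clusters 29.6% passed higher in neutrophils and 22% lower, while 27% and 18.4% did not overlap. The 9 genes, with 2 calls in each direction, lie near these shares. Hmox1 at 0.64 (SE 0.47, limma adjusted p = 0.257) and Slc11a1 at 0.30 (SE 0.21, 0.232) did not pass. Neither did Blvrb at -0.75 (0.277), Tfrc at -0.42 (0.384) and Ncoa4 at -0.42 (0.258). The Fth1 call ended with quantile normalization over all arrays (0.22, adjusted p = 0.238) and with median centring (0.30, 0.161).

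**Figure D4:**
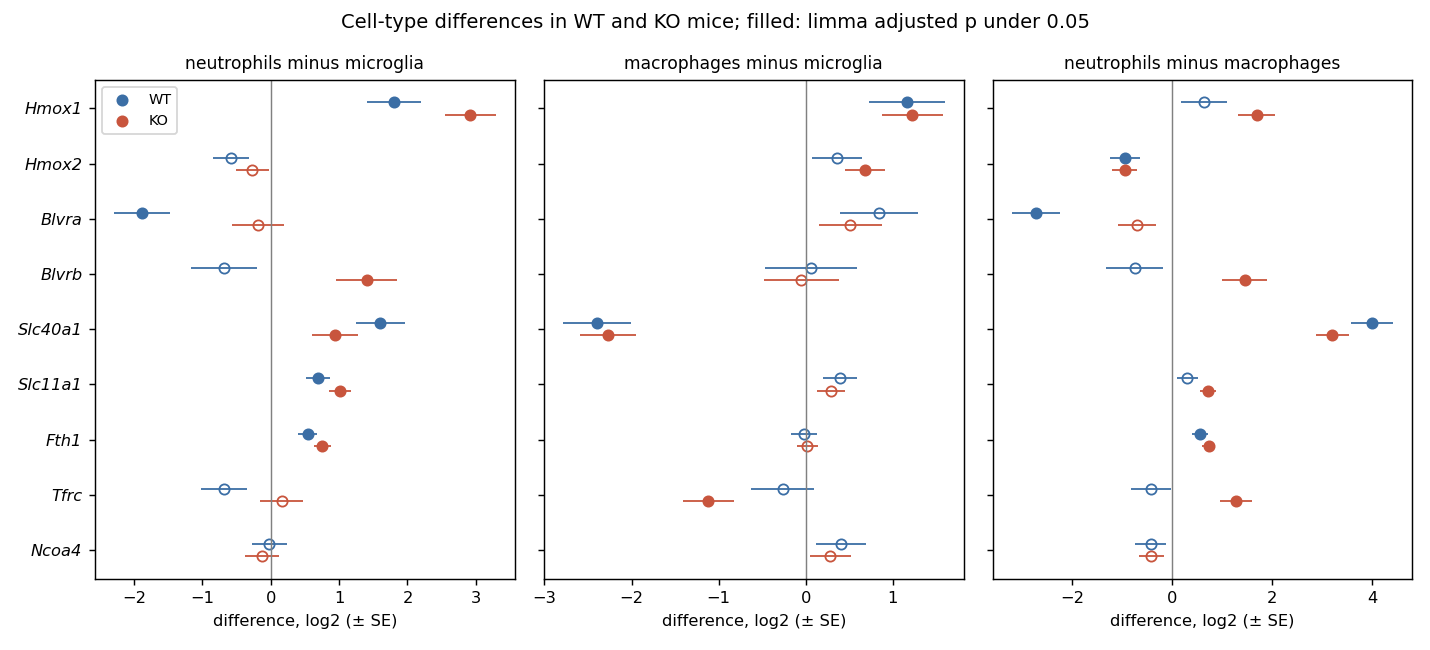
Differences in log2 intensity between cell types (horizontal axes, with the SE of the model) for the 9 genes in WT mice (blue) and KO mice (red); filled circles passed limma's adjusted p of 0.05. Slc40a1 is filled in all 6 comparisons, from -2.40 to 4.00, and Blvrb is filled only in KO mice, where neutrophils exceed microglia by 1.40 and macrophages by 1.45.

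Relative to KO microglia, KO neutrophils had 5 genes higher and none lower, where 13% and 32% of clusters passed. They were Hmox1 by 2.92 (SE 0.37, limma adjusted p = 1.71e-07), Blvrb by 1.40 (SE 0.45, 0.012), Slc11a1 by 1.01 (SE 0.17, 1.1e-05), Slc40a1 by 0.94 (SE 0.34, 0.0234) and Fth1 by 0.76 (SE 0.13, 1.75e-05). Hmox1, Slc11a1 and Fth1 did not overlap, 3 of 9 where 8.36% of clusters were wholly higher and 21% wholly lower. Blvra, which was lower than microglia in WT neutrophils, differed by -0.18 (adjusted p = 0.734). The Slc40a1 call ended without KO neutrophil 2 or 5 or KO microglia 5 or 6 (adjusted p 0.0514 to 0.0882).

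Relative to KO macrophages 6 genes were higher in KO neutrophils and 1 was lower, against 15.9% and 15.8% of all clusters. Slc40a1 was higher by 3.21 (SE 0.34, limma adjusted p = 1.73e-08), Hmox1 by 1.69 (SE 0.37, 0.000821), Blvrb by 1.45 (SE 0.45, 0.0142), Tfrc by 1.28 (SE 0.31, 0.00235), Fth1 by 0.74 (SE 0.13, 6.11e-05) and Slc11a1 by 0.72 (SE 0.17, 0.00138). Hmox2 differed by -0.95 (SE 0.24, adjusted p = 0.00353). Of these, Blvrb alone overlapped, where 10.3% of clusters were wholly higher and 11% wholly lower. All 7 calls passed with each array left out in turn. Blvra, at -0.70 (SE 0.38, adjusted p = 0.17), did not pass. Slc40a1 and Tfrc were not shown to be above background in KO macrophages.

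KO macrophages differed from KO microglia in 4 genes. Hmox1 was higher by 1.23 (SE 0.35, limma adjusted p = 0.00573) and Hmox2 by 0.68 (SE 0.23, 0.018), against 11.8% of clusters higher. Slc40a1 differed by -2.27 (SE 0.32, adjusted p = 1.12e-06) and Tfrc by -1.12 (SE 0.30, 0.00305), both without overlap, against 31.4% of clusters lower, 17.6% wholly lower and 7.42% wholly higher. With quantile normalization over all arrays the Tfrc call ended (-0.72, adjusted p = 0.0618). With median centring 7 genes passed, adding Slc11a1 at 0.65, Ncoa4 at 0.65 and Fth1 at 0.38, and the share of higher calls among all clusters went from 27.4% to 65.5%. Here too centring raised every cluster alike, so the added calls are not particular to these genes. The cell-type comparisons in WT and KO mice use the same groups as the comparisons of genotype and are not independent of them.

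The rest of the pathway was read from 9 lists with 101 measured genes outside the set. In KO neutrophils 20 of the 101 rose (19.8%) and 5 fell (4.95%), with a median difference of 0.15. Over all clusters 10.7% rose and 9.14% fell, with a median of -0.13. All clusters include dim ones, and the level of the 2015 bright clusters also ranged higher in KO neutrophils, with overlap. With an array left out the 101 gave 14 to 22 higher and 2 to 8 lower, and fewer fell without WT neutrophil 3 (2), KO neutrophil 1 (2), 3 (3) or 4 (2) and more without KO neutrophil 5 (8). In macrophages and in microglia none of the 101 passed, where at most 0.00452% of all clusters did in either direction. Of the 25 genes that passed in neutrophils, 14 did so with each array left out in turn, 12 in a fit of the neutrophil arrays alone, and 3 with the level of the 2015 bright clusters as a covariate, with which 21 kept their sign.

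Upstream of heme oxygenase, 3 of 13 genes of heme uptake and transport rose and 1 fell, Hp, where 10.7% of all clusters rose and 9.14% fell. Flvcr1, described as a heme exporter, rose by 2.54 (SE 0.48, limma adjusted p = 0.000457). Lrp1, the receptor for heme bound to hemopexin, rose by 1.82 (SE 0.30, adjusted p = 0.000104), and Slc48a1, which moves heme out of the phagolysosome, rose by 1.41 (SE 0.37, adjusted p = 0.00818). Among the genes named from the lists Lrp1, Slc39a14 and Aifm2 passed with the covariate. Of 11 genes of heme synthesis 1 rose and 1 fell, near the share of all clusters. Alad, the second enzyme of the pathway, rose by 0.89 (SE 0.27, adjusted p = 0.0221), and Alas1, its rate-limiting first enzyme outside the erythroid line, changed by -0.89 (SE 0.18, adjusted p = 0.000719).

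Among 15 genes of iron uptake and reduction 3 rose and 1 fell, Steap4, where 10.7% of all clusters rose and 9.14% fell. Steap3, the ferrireductase of the transferrin cycle, rose by 1.86 (SE 0.47, limma adjusted p = 0.00632). Mcoln1, a lysosomal channel that passes iron, rose by 1.31 (SE 0.25, adjusted p = 0.000454), and Slc39a14, an importer of iron not bound to transferrin, by 1.19 (SE 0.24, adjusted p = 0.000799). None of 6 genes of storage and ferritin turnover passed, and the ferritin light chain Ftl1 was at 0.37 (SE 0.15, adjusted p = 0.0815). In the list of export and the hepcidin axis 1 of 11 rose, Hfe, a partner of the transferrin receptor, by 1.67 (SE 0.29, adjusted p = 0.000184), and 1 fell, Bmp6 at -1.08 (SE 0.32, adjusted p = 0.0185), whose means of 5.59 in WT and 4.51 in KO were not shown to be above background. Of 9 genes of iron sensing 1 fell, Fbxl5, which targets the iron regulatory protein IRP2 for degradation, at -1.03 (SE 0.31, adjusted p = 0.019). With 1 call in each direction of 11, and 1 of 9, the counts of these lists also lie near the share of all clusters.

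The mitochondrial list had 5 of 13 genes higher and none lower. For this list and those that follow, 10.7% of all clusters rose and 9.14% fell, and no list was tested as a set. Cisd1, an iron-sulfur protein of the outer membrane, rose by 1.15 (SE 0.22, limma adjusted p = 0.000563), Hscb, a co-chaperone of cluster assembly, by 1.52 (SE 0.34, 0.00223), and Fdx1, a ferredoxin, by 0.73 (SE 0.25, 0.0381). The count of 5 fell to 2 without WT neutrophil 2 or 4 or KO neutrophil 1 or 4, and to 3 without WT neutrophil 3 or KO neutrophil 2 or 3. The other members called, Glrx5 and Nfs1, passed in 23 and 9 of the 30 fits that left an array out. In the fit of the neutrophil arrays alone neither passed (limma adjusted p = 0.169 and 0.173). Regulators of heme oxygenase and NRF2 targets had 5 of 16 higher and none lower. Gclc, which makes the precursor of glutathione, rose by 2.31 (SE 0.38, adjusted p = 0.000102), Txnrd1, thioredoxin reductase, by 2.04 (SE 0.37, 0.000336), and Mitf, a transcription factor, by 1.36 (SE 0.31, 0.00319). The count of 5 fell to 3 without WT neutrophil 2 or 3 or KO neutrophil 1 or 4, and the other members called, Keap1 and Srxn1, passed in 22 and 25 of the 30 fits. Of 7 genes of lipid peroxidation and ferroptosis 2 rose, Aifm2, a suppressor of ferroptosis with means of 5.46 in WT and 6.65 in KO that were not shown to be above background, by 1.19 (SE 0.19, 8.99e-05) and Lpcat3 by 1.16 (SE 0.33, 0.013).

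Some of these calls rested on few arrays. The Alad call ended without WT neutrophil 4 or KO neutrophil 1 or 3 (adjusted p up to 0.12), that of Bmp6 without WT neutrophil 4 (0.138) and that of Fbxl5 without WT neutrophil 3 or KO neutrophil 1 or 4 (up to 0.0535). That of Lpcat3 ended without WT neutrophil 3 or 4 (up to 0.0873), and that of Fdx1 without WT neutrophil 2, 3 or 4 or KO neutrophil 1, 2, 3 or 4 (up to 0.128). In the fit of the neutrophil arrays alone Alad, Bmp6, Fdx1, Lpcat3, Flvcr1, Hscb, Mcoln1, Mitf and Steap3 did not pass (adjusted p 0.0522 to 0.174).

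**Figure D5:**
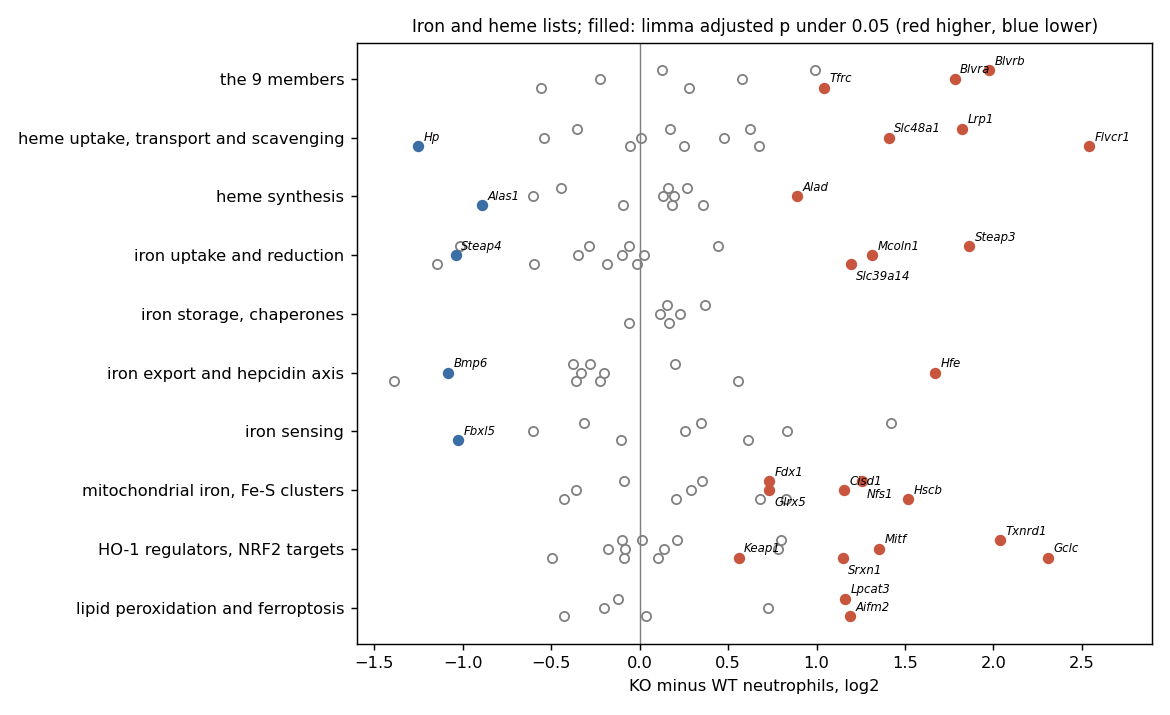
KO minus WT difference in neutrophils (log2, horizontal axis) for the 9 genes and for the 101 measured genes of 9 iron and heme lists (rows); filled points passed limma's adjusted p of 0.05, red higher and blue lower in KO. Of the 101, 20 points are red and 5 blue, from -1.25 for Hp to 2.54 for Flvcr1.

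The same lists were compared between WT cell types. Relative to WT microglia, 25 of the 101 genes (24.8%) were higher in WT neutrophils and 39 (38.6%) lower, near the 22% and 32.3% of all clusters. Hp, haptoglobin, which binds free hemoglobin, was at 15.19 in WT neutrophils and 6.14 in WT microglia, a difference of 9.05 (SE 0.41, limma adjusted p = 7.38e-17). The ferrireductase Steap4 was at 12.92 and 5.69, a difference of 7.23 (SE 0.35, 2.93e-16). Both microglial levels were under the median of all cluster means and not shown to be above background, so these sizes depend on the lowest intensities of the array. Fbxl5 was higher by 4.81 (SE 0.30, 5.72e-14). The cystine transporter Slc7a11 was higher by 8.04 (SE 0.58, 1.76e-12). Slc46a1, a folate transporter also described as a heme carrier, differed by -4.30 (SE 0.30, 6.43e-13) with a neutrophil level of 6.17, likewise not shown to be above background. Slc39a8, an importer of zinc, manganese and iron, differed by -3.94 (SE 0.31, 9.46e-12), and Hfe by -3.83 (SE 0.28, 2.18e-12). Between WT macrophages and WT microglia 20 were higher (19.8%, against 9.62% of all clusters) and 19 lower (18.8%, against 27.9%). Among them were Hp at 6.91 and Slc46a1 at -4.97, the latter with a macrophage level under the median of all cluster means. Between WT neutrophils and WT macrophages 20 were higher (19.8%, against 29.6%) and 34 lower (33.7%, against 22%), among them Lrp1 at -2.28, Hfe at -3.08 and Steap4 at 7.05 with a macrophage level of 5.87.

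Finally, genes with the most similar pattern over the 6 groups were found by the root mean square difference between group means, each gene centred on its own mean, among 11468 genes. Over only 6 group means this is a description. Closest to Blvrb were Stra6l (0.19), the lysosomal lipase Lipa (0.19) and catalase, Cat (0.23). Closest to Hmox1 were Rab20 (0.28), Pgap6 (0.29) and Litaf (0.31). For Slc40a1 the nearest were Vamp5 (0.20) and the histone genes H4bc24 (0.31) and H2bc23 (0.40), and for Tfrc they were Harbi1 (0.10), Cyb5a (0.19) and Nudt9 (0.20). Slc11a1 lay nearest to the calcium channel Trpv2 and thioredoxin, Txn1, both at 0.068. Blvra was nearest to Tmem183a (0.073), Fth1 to Kcnrg (0.072), Hmox2 to Edf1 (0.070) and Ncoa4 to Trir (0.051).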

How the data were processed

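RNA of sorted cells was hybridised to Affymetrix Clariom HT mouse arrays, 30 in all. The authors deposited linear intensity values that came from RMA, per the submitters' processing notes. RMA subtracts background, brings arrays to a common distribution and combines probes, and its version and the arrays normalized together are not given in the sources used here. Log2 was taken without a pseudocount (log2 intensities of the deposited values) and no cluster was left out. Symbols came from the platform annotation.

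All 22103 clusters were fitted over the 30 arrays in limma 3.58.1 under R 4.3.3, with a mean for each group and 24 residual degrees of freedom. Passing means an adjusted p (Benjamini-Hochberg, over all clusters of a comparison) under 0.05, and every adjusted p in the text is from limma. There were 12 comparisons. P-values measure the spread between arrays titled as biological replicates, whose number limits the precision. The fit was tested on simulated data. Figures were drawn with matplotlib 3.10.9.

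The members, lists, named genes and alternatives were chosen with earlier results of these data known. All 9 members were named, with up to 3 genes of smallest adjusted p from each list, or the smallest where none passed. Alternatives were other scalings, array weights, a variance trend, a filter on the dimmest 25%, 1 row per gene, only the arrays compared, the replicate block, a covariate, log2 of the value plus 16, and arrays left out.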

Additional observations from a re-analysis of the deposited data

Results flagged for a closer look

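In 8 cases of 45 tested (9 genes in the 5 groups of 4 to 6 arrays), 1 array lay far from the rest of its group by the Dixon test at the 95% level, which chance gives in about 1 of 20 groups. Blvra in KO neutrophil 5 was at 11.08, with the other KO neutrophil arrays at 12.68 to 13.30. Blvrb in KO neutrophil 2 was at 12.27, with the others at 13.09 to 13.33. Slc40a1 in WT neutrophil 4 was at 9.33, with the others at 10.96 to 11.24. Hmox1 in KO macrophage 5 was at 13.64, with the others at 11.85 to 12.48, and in KO microglia 3 at 9.83, with the others at 11.16 to 11.85. That microglia array was also low for Blvrb, at 10.22 against 11.66 to 12.37. Slc11a1 in WT microglia 3 was at 16.34, with the others at 15.22 to 15.56. Fth1 in KO macrophage 2 was at 17.07, with the others at 17.21 to 17.25.

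The change with genotype differed between cell types in a test of the difference itself for Blvra, by 2.03 between neutrophils and macrophages (limma adjusted p = 0.0436), and for Tfrc, by 1.70 (adjusted p = 0.0392). These calls passed in 24 and 31 of 42 other settings. Both ended with only the arrays compared (adjusted p = 0.0734 and 0.0572) and with the covariate (0.07 and 1.30, adjusted p = 0.985 and 0.443), and that of Blvra also with the replicate block (0.0826) and with either quantile normalization.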

How the results depend on the processing

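Of all results recomputed under 42 other settings, 4405 kept their direction and side of the threshold, or moved by under 1 SD, 59 lost and 40 gained a call, 27 moved further and 5 reversed. A reversal was counted only where the sign changed and the difference passed in the main fit or the other setting. Signs also changed without a call, as for Blvrb in WT neutrophils minus WT microglia (-0.69 in the main fit, up to 0.75). All 5 counted reversals were of Blvra with the level of the 2015 bright clusters as a covariate. Blvra is one of those clusters, which were chosen as bright in macrophages and microglia, and their level alone separates neutrophils from the other cells, so in comparisons of cell types these reversals say nothing about Blvra. KO minus WT in neutrophils was -0.10, and neutrophils minus microglia was 1.45 in WT and 1.39 in KO, and neutrophils minus macrophages was 0.76 in WT and 0.83 in KO. With that covariate the count of the 9 genes that passed was 0 for KO against WT neutrophils, 2 for WT neutrophils against WT macrophages and 0 for the difference of the genotype change between neutrophils and macrophages. That last count was 1 with either quantile normalization, with only the arrays compared and with the replicate block, where Blvra was at 1.95 (limma adjusted p = 0.0826). For the difference between neutrophils and microglia it was 1 with median centring, without the dimmest 25% of clusters and without both KO microglia 2 and 4, and 2 with array weights. For WT macrophages against WT microglia it was 1 with quantile normalization over all arrays and with only the arrays compared, and 6 with median centring. It was 2 for WT neutrophils against WT macrophages with quantile normalization over all arrays, and 7 for KO macrophages against KO microglia with median centring. With 1 array left out the counts ranged from 2 to 3 for KO against WT neutrophils, 1 to 3 for WT macrophages against WT microglia, 0 to 2 for the neutrophil and microglia difference and 0 to 3 for the neutrophil and macrophage difference. Among the other single calls, array weights ended that of Tfrc in KO neutrophils (0.93, adjusted p = 0.0978). The cause of these changes was not tested.

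Over all clusters, 4390 passed for KO against WT neutrophils (822 higher and 262 lower in a fit of those arrays alone, and 251 and 223 with the covariate). Same-numbered arrays did not all deviate together in this comparison (correlations -0.20 to 0.26). WT and KO arrays come from different mice, so these correlations cannot tell whether a number marks 1 mouse across cell types. The labels do not say so either, and the cell-type comparisons may hold arrays of the same mouse treated as independent. The replicate block changed no other call of the 9 genes. No background level is stated for these arrays, which limits what can be said of Tfrc in WT neutrophils and of Tfrc and Slc40a1 in WT and KO macrophages.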
